A study of Mus musculus with 12 samples.

Results

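Lysosomal membrane proteins form the skin of the organelle in which cells degrade material delivered by endocytosis and autophagy. The most abundant of them are heavily glycosylated and shield the membrane from the hydrolases inside, while others are receptors, lipid transporters or ion channels that exchange material with the cytosol. The members described here are Lamp1, Lamp2, Scarb2, Cd63, Cd68, Npc1, Mcoln1, Gpnmb, Laptm4a and Ctns, 10 of the 25239 genes in the expression table. These members carry 5 of the 2643 m6A peaks listed in the peak table. Below, all peaks means these 2643. The members were chosen by what their proteins do, with the authors' own comparison of expression between treated and control cells in view. They were found in both tables by gene name. The fold changes and p-values of that comparison are not used here.

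The study treated HT22 cells, a wild-type line of mouse hippocampal origin, with 800 μM mesaconitine (MA), a diterpenoid alkaloid of Aconitum plants, for 72 h. Untreated HT22 cells served as control. Each condition has 3 libraries of input RNA and 3 libraries of RNA pulled down with an anti-m6A antibody (IP), 12 in all. N6-methyladenosine (m6A) is a methyl mark on adenosines of mRNA, and the reads of IP over those of input in a region measure how strongly it was enriched. Antibodies of this kind also recognise m6Am, a related mark beside the mRNA cap, and the marks cannot be told apart in these reads.

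Both tables hold values pooled over libraries. Expression has 1 base mean per gene, the authors' mean over libraries of the normalized read count, without a value per condition. Each peak has 1 number of reads for each of the 4 pooled groups, with a total over all peaks of 288659 reads for control input, 267002 for control IP, 214778 for MA input and 359889 for MA IP. No spread between replicates can be computed, so no test was run, and the intervals given are 95% intervals for counting error only. They are narrower than intervals that include the spread between cultures would be. HT22 is described as a neuronal line, but of 12 neuronal marker genes 8 are listed at a base mean of 0, among them Map2 and Snap25, and the highest is Tubb3 with 473. Of 8 fibroblast and mesenchymal markers none is at 0 and 1 is under 10. They run from 1.35 for Lum and 145 for Dcn through 1573 for Pdgfrb to 134804 for Col3a1. Macrophages are known for high Cd68 and Gpnmb, and of 13 macrophage and microglia markers 6 are listed at 0, among them Adgre1, Tyrobp and C1qa, and 10 are under 10, Csf1r at 8.06 included. The other 3 are Tmem119 with 303, near the 327 of Cd68, Cd14 with 68.0 and Aif1 with 64.3, and the part of such cells in the members' levels was not tested.

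The peaks lay on Mcoln1, Npc1, Scarb2 and Cd68. Stretches are printed for all of them but Npc1, to show where each peak sits and which letters it holds, read 5′ to 3′ on the transcribed strand of GRCm38, the same assembly as the authors' mm10. Capitals mark the core around which m6A is usually found, which may read GGAC or, with other purines in its first places, GAAC. It may also read AGAC or, with A in both places, AAAC. Stretches that lie in a 5′UTR are limited to 30 bases around the core.

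Mcoln1 peak 1, chr8:3500550-3500579, plus strand: gcggcgcgcgctgGGACccacccgcgtctc
Mcoln1 peak 2, chr8:3505779-3505828, plus strand: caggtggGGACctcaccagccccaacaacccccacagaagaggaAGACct
Scarb2 peak, chr5:92505519-92505548, minus strand: cagcagccggagaAAACgaaagccaggcgg
Cd68 peak, chr11:69665280-69665329, minus strand: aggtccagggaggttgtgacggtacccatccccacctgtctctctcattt

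The first peak of Mcoln1 covered chr8:3500544-3500618 in exon 1 and ran from the 5′UTR into the coding sequence, with its midpoint 16 bases before the start codon. The second covered the printed 50 bases of exon 2, in the coding sequence, with its midpoint 96 bases after the first base of the start codon. The peaks are 5160 bases apart in the genome but their midpoints are only 112 bases apart on the spliced transcript, so a single RNA fragment can reach both and they are not independent measurements. The peak of Scarb2 covered chr5:92505512-92505561, in the 5′UTR within exon 1, at base 102 of a transcript of 4698 bases. The peak of Cd68 lay in the coding sequence in exon 3 of 6. That of Npc1 covered chr18:12197183-12197257, on the minus strand, in the coding sequence in exon 19 of 25. The peaks of Scarb2 and Mcoln1 thus fell in the first 2.17%, 6.05% and 11.5% of their transcripts, those of Cd68 and Npc1 at 51.3% and 58.1%, and none in a 3′UTR. No exon of another annotated gene overlapped any of the 5 peaks.

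**Figure D1:**
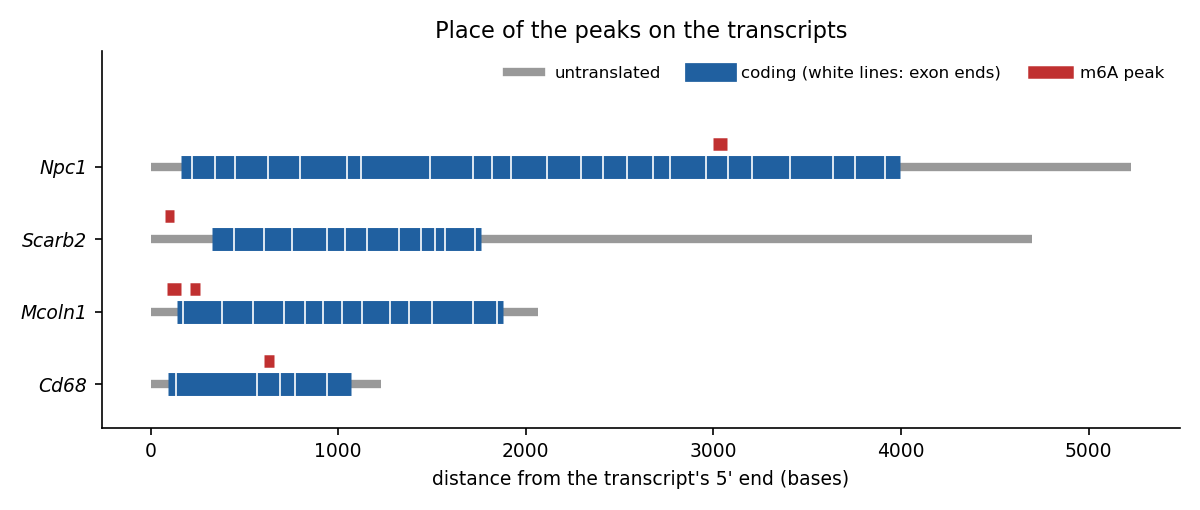
Each line is the transcript used for a member with a peak, drawn to scale from its 5′ end in bases, with the coding part in blue, untranslated parts in grey and peaks in red. The peaks of Scarb2 and Mcoln1 sit at the 5′ end, and those of Npc1 and Cd68 past the middle of the transcript.

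On the letters themselves, 4 of the 5 peaks held at least 1 core. Mcoln1 peak 1 held GGAC, its peak 2 held GGAC and AGAC, the Npc1 peak held AGAC and the Scarb2 peak AAAC. No core occurred in the 50 bases of the Cd68 peak. In the motif known for m6A the core is followed by a base other than G. The core of the Scarb2 peak is followed by G, so 3 of the 5 peaks, on Mcoln1 and Npc1, held one that meets this. Among all peaks of 50 bases, 52.2% of 908 held a core, 47.9% one not followed by G and 18.5% GGAC. Among the 395 of 75 bases the shares were 67.6%, 63.5% and 25.3%. A match is a description of the window and not of a methylated base.

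The members' base means spanned a wide range. Levels between genes are compared per kb of the longest coding transcript. In that order stood Cd63 with 15519, Lamp1 with 9540.15, Laptm4a with 6209 and Gpnmb with 5761 normalized reads per kb. Cd63 is a tetraspanin of late endosomes and lysosomes, Lamp1 one of the major glycoproteins of the lysosomal membrane, and Gpnmb a type I glycoprotein found in melanosomes and in lysosomes under stress. Laptm4a is a small protein with several membrane spans found in endosomes and lysosomes. These 4 genes lay at percentile 97.7 or higher of all genes with a base mean above 0, and none of them carried a listed peak. The median of all such genes was 193 per kb.

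Lamp2, the second major glycoprotein, with isoforms that take part in chaperone-mediated autophagy and in fusion with autophagosomes, had a base mean of 6689 and 1856 normalized reads per kb. Scarb2, also known as LIMP-2, carries β-glucocerebrosidase to lysosomes and had a base mean of 7129 and 1517 per kb. Their base means stood in the other order, since the transcript of Scarb2 has 4698 bases and that of Lamp2 3604.

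The transporters and the channel were lower. Mcoln1, the calcium channel TRPML1 of lysosomes, had a base mean of 1175 and 569 per kb. Npc1, which exports cholesterol from lysosomes, had a base mean of 2689.6 and 515 per kb. Ctns, the cystine exporter cystinosin, had a base mean of 1087 and 399 per kb. Cd68, a glycoprotein of the LAMP family typical of macrophages, was the lowest member, with a base mean of 327 and 266 per kb, above 55.5% of genes. With no spread between libraries for the base mean, neighbours in this order such as Laptm4a and Gpnmb, or Mcoln1 and Npc1, cannot be said to differ.

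Levels depend on the length used. With the mean length of all annotated transcripts of a gene, Lamp1 stood first with 14938 (in place of 9540.15) and Gpnmb behind Cd63 with 11880.0 (in place of 5761) normalized reads per kb, and the 6 lowest members kept their places. Among these, Mcoln1 then had 998, Npc1 976 and Ctns 743 per kb, each more than 1.5 times the value above. Cd63 shares sequence with the pseudogene Cd63-ps. Its transcript was divided into 22 stretches of 50 bases, and 7 of them (31.8%) were also found in Cd63-ps, so its level is uncertain. No such stretch of the other 9 members was found in another gene. The table gives Gapdh, a gene with many pseudogenes, a base mean of 893, against 54349.9 for Actb. The part of pseudogenes in these values was not tested.

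**Figure D2:**
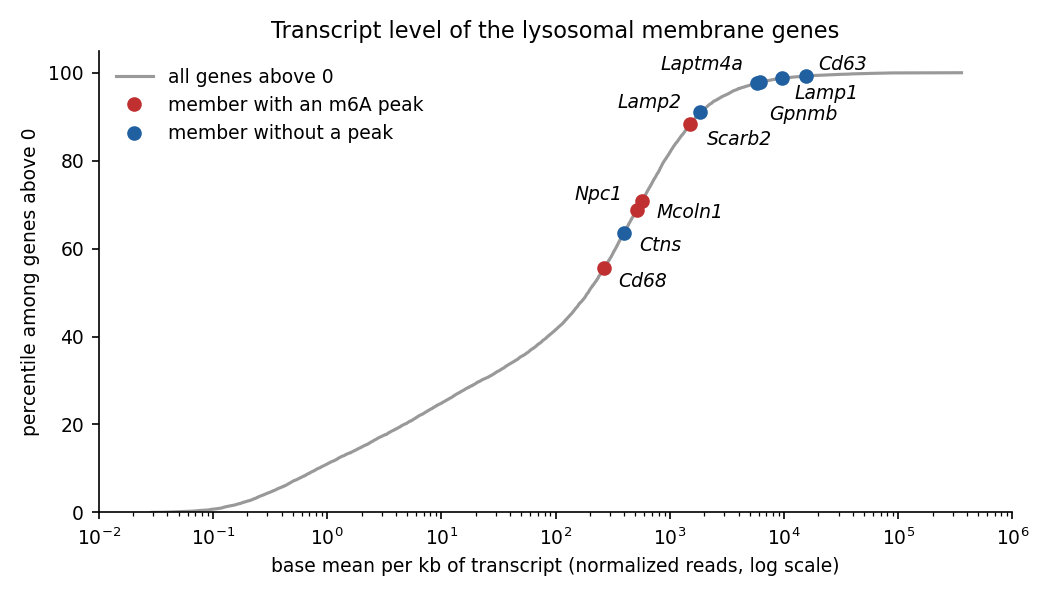
Points show each member's base mean per kb of transcript on a log axis and its percentile among all genes with a base mean above 0, whose cumulative curve is grey. The 4 members with the highest level, from Gpnmb to Cd63, have no listed m6A peak. Of the 4 with the lowest level, from Cd68 to Mcoln1, 3 have one, with Scarb2 and Lamp2 between these groups. Among genes within 2-fold of a member's base mean, 7.67% to 13.6% have a peak around the 4 highest. Around the 4 lowest the shares are 16.7% to 20.1%.

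Of the 10 members, 4 had a listed peak, against 2021 of 16178 genes (12.5%) with a base mean above 0. The share of genes with a peak varied with level, from 0.986% in the lowest of 10 classes of base mean to 20.4% in the eighth and 12.4% in the highest. In the highest class lay 6 members, and of these only Scarb2 had a peak. Among the genes within 2-fold of a member's base mean, the share with a peak was 7.68% around Gpnmb, 7.67% around Lamp1, 10.8% around Cd63 and 13.6% around Laptm4a, and 16.1% around both Lamp2 and Scarb2. Around Mcoln1 it was 20.1%, around Npc1 19.1%, around Ctns, which had none, 19.8% and around Cd68 16.7%. The paper reports many more m6A peaks, on more genes, than are listed here. How the listed peaks were selected is not given in the sources used here. A gene without a listed peak may thus have one among the others. The absence of a listed peak does not show that a transcript lacks m6A.

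The comparison of m6A between MA-treated and control cells rests on the 4 read numbers of each peak. Mcoln1 had by far the deepest peaks among the members. Its first peak held 452 input and 334 IP reads in control cells, and 255 input and 561 IP reads after MA. In its second peak the numbers were 638 and 410 in control cells, and 386 and 817 after MA. IP reads were the minority in control cells and the majority after MA at both places, as they were over all peaks together.

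As a share of IP and input reads together, IP made up 42.5% (exact Clopper-Pearson interval 39.0% to 46.0%) of the first Mcoln1 peak in control cells and 68.8% (65.4% to 71.9%) after MA. For the second peak the shares were 39.1% (36.2% to 42.2%) and 67.9% (65.2% to 70.5%). Over all peaks IP reads made up 48.1% of the reads of control cells and 62.6% of those of MA-treated cells, and in that pooled shift a change of m6A and the unequal depth of the libraries cannot be told apart. The Mcoln1 peaks were below the pooled share in control cells and above it after MA.

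The Npc1 peak held 99 input and 68 IP reads in control cells, and 51 input and 129 IP reads after MA. Its IP share was 40.7% (33.2% to 48.6%) in control cells and 71.7% (64.5% to 78.1%) after MA. The Cd68 peak was shallow, with 25, 26, 13 and 39 reads in the same order, and shares of 51.0% (36.6% to 65.2%) and 75% (61.1% to 86.0%). The Scarb2 peak held 32, 33, 8 and 27 reads, with shares of 50.8% (38.1% to 63.4%) and 77.1% (59.9% to 89.6%). For Cd68 and Scarb2 the intervals of control and MA overlapped, and for Npc1 and both Mcoln1 peaks they did not. These shares are not centred, and the median IP share of all peaks also rose, from 48.9% in control to 64.8% after MA. Deeper peaks have narrower intervals, and the share of all peaks whose intervals separate was not computed. The split is thus not a trait of these genes.

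**Figure D3:**
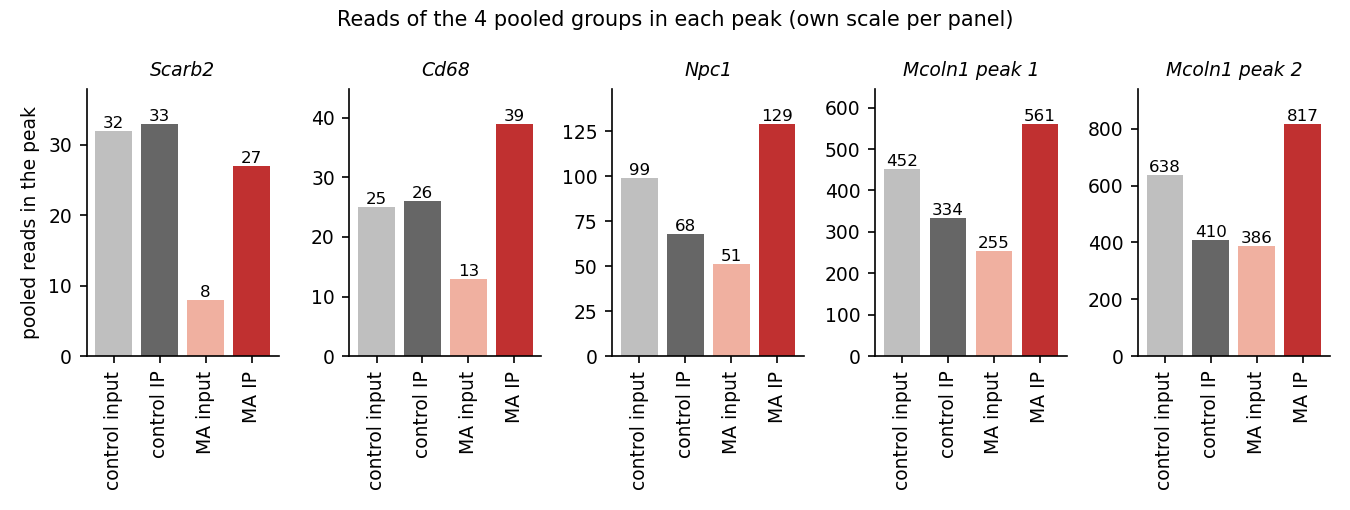
Bars give the pooled input and IP reads of control and MA-treated cells in each of the 5 peaks, each panel starting at 0 on its own scale. MA IP is the tallest bar in the Cd68, Npc1 and Mcoln1 panels, and in the Scarb2 panel MA input is down to 8 reads.

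To remove the shift common to all peaks, the log2 change of the IP to input ratio from control to MA was centred on the median of all 2643 peaks, which was 0.90 before centring. A centred change of 0 therefore means that a peak moved like the typical peak, and a general rise or fall of m6A cannot be seen on this scale. The centred log2 change was 0.97 (0.32 to 1.61) for Npc1, 0.81 (0.56 to 1.06) for Mcoln1 peak 2, 0.75 (-0.56 to 2.06) for Scarb2, 0.67 (0.37 to 0.96) for Mcoln1 peak 1 and 0.59 (-0.60 to 1.78) for Cd68. These are 1.95-fold, 1.76-fold, 1.68-fold, 1.59-fold and 1.51-fold above the typical peak. The second Mcoln1 peak exceeded the first by 0.15 on the log2 scale, and the interval of this difference, -0.24 to 0.53, included 0.

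All 5 peaks, on 4 genes, were thus more than 1.5-fold higher after MA relative to the typical peak, and none was more than 1.5-fold lower. Of all peaks 27.6% were past 1.5-fold higher and 25.7% past 1.5-fold lower. The counting interval lay above 0 for 3 of the 5 peaks, those of Npc1 and Mcoln1, as it did for 22.5% of all peaks. The members' changes were not extreme, at percentiles from 72.5 for Cd68 to 82.7 for Npc1 of all peaks. At a threshold of 2-fold none of the 5 passed, and with a pseudocount of 1 in place of 0.5 the Cd68 peak, at 0.56, was under 1.5-fold and 4 remained above it. Replicates were pooled before these reads were tabulated, and whether 1 library carries a change was not tested.

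**Figure D4:**
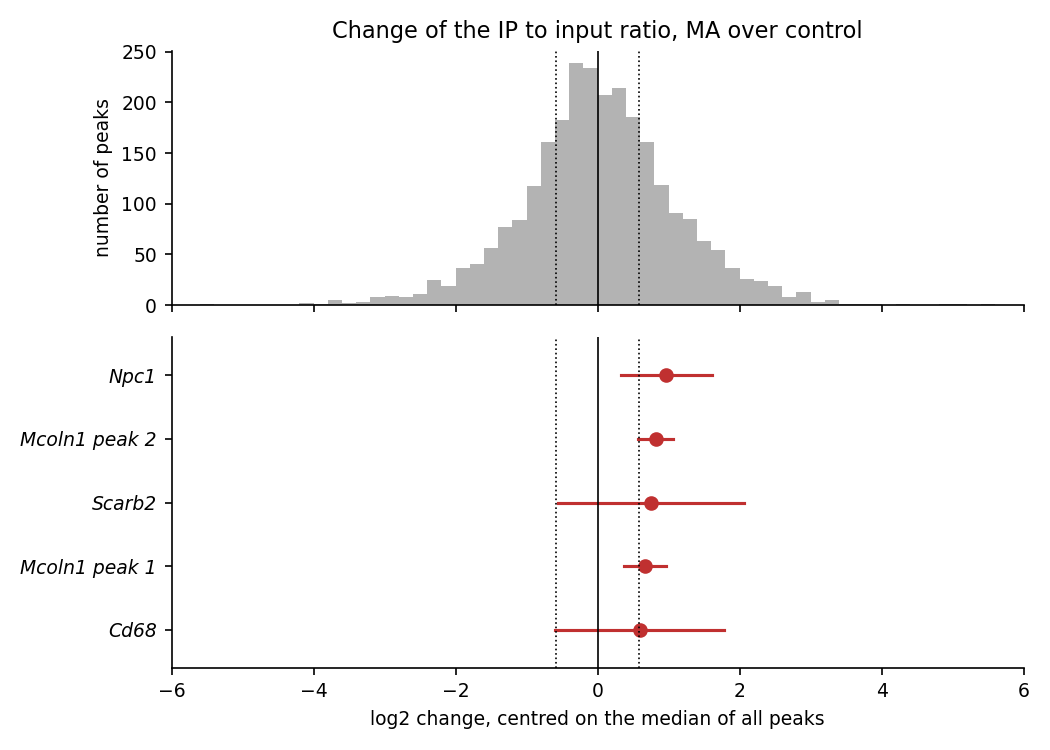
The upper panel is a histogram of the centred log2 change of the IP to input ratio, MA over control, for all 2643 peaks, and the lower panel gives the 5 member peaks with their 95% counting intervals. Dotted lines mark 1.5-fold in either direction, and all 5 points lie to the right of the upper line, inside the bulk of the histogram.

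The change of the ratio can come from either kind of library, so both were looked at. Each was again centred on the median of all peaks, and all changes are log2 of MA over control. For Mcoln1 peak 1 the input change was -0.36 (-0.58 to -0.14) and the IP change 0.29 (0.09 to 0.48). For Mcoln1 peak 2 they were -0.26 (-0.44 to -0.08) and 0.53 (0.36 to 0.70). For Npc1 they were -0.48 (-0.97 to 0.00) and 0.46 (0.03 to 0.88). At these 3 peaks the IP interval lay above 0, and the input interval lay below 0 at both Mcoln1 peaks and reached 0 at Npc1. The share of all peaks with such intervals was not computed. Among all peaks the IP changes were at percentiles 68.6 and 80.8 for Mcoln1 and 77.1 for Npc1. The input changes were at percentiles 24.4, 29.9 and 18.5 in the same order, so none was extreme.

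At Cd68 the input change was -0.45 (-1.40 to 0.50) and the IP change 0.11 (-0.60 to 0.82), and neither was separate from 0. At Scarb2 both were lower, with an input change of -1.47 (-2.56 to -0.38) and an IP change of -0.75 (-1.47 to -0.02). The higher ratio of the Scarb2 peak after MA therefore came with fewer IP reads and still fewer input reads, of which there were 8. Its input change was at percentile 1.29 of all peaks. Input reads in a window of 50 or 75 bases are a poor stand-in for the level of a whole transcript, and the change in expression of these genes was not tested here.

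The depth of the Mcoln1 peaks stood out against the level of the gene. Control and MA input reads together numbered more than in 95.5% and 98.2% of all peaks, although the base mean of Mcoln1 exceeded that of only 62.9% of genes. Input reads per kb of peak, divided by the gene's base mean per kb, were 16.6 and 36.0 for Mcoln1, 3.88 for Npc1, 2.86 for Cd68 and 0.527 for Scarb2, against a median of 2.94 over the 2448 peaks whose gene has both values. The Mcoln1 peaks were at percentiles 86.8 and 94.2 of these ratios, which set raw pooled reads against a normalized mean. Coverage along the rest of the transcript was not looked at. The G and C content of Mcoln1 peak 1 was 82.7%, and that of the other 4 peaks was between 52.0% and 70.0%.

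Promoters were searched for CACGTG, a palindrome read the same on both strands and the E-box core of the sites through which the factors TFEB and TFE3 are known to act on lysosomal genes. RefSeq promoters of GRCm38.p6, from 250 bases before to 50 after the start, were given for 9 members. Lamp1 and Mcoln1 held the motif, 2 of 9, against 8.09% of 27025 genes. The longer palindrome TCACGTGA, which contains the first, occurred in Mcoln1 and in 1.12% of genes. The Mcoln1 stretches are shown because the motif occurs in both, and the Lamp1 stretch because it holds the motif 4 times in 73 bases. Only 8 of 32544 promoters (0.0246%) held it 4 times or more. Capitals mark CACGTG.

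Lamp1, chr8:13159088-13159160, plus strand: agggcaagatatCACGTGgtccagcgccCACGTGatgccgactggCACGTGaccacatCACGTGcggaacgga
Mcoln1 first motif, chr8:3500436-3500465, plus strand: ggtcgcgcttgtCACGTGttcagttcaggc
Mcoln1 second motif, chr8:3500462-3500491, plus strand: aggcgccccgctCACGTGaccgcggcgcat

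Gpnmb, Cd63, Cd68, Ctns, Lamp2, Laptm4a and Scarb2 did not hold these letters in this window. For Mcoln1 the RefSeq start lies downstream of the start in the GENCODE annotation used to place the peaks, chr8:3500457. By that annotation only the first Mcoln1 motif lies before the start. The second, which is part of the longer palindrome, then lies inside exon 1. The motif was looked at after the members were known, and no test was made of its frequency.

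Genes listed as other lysosomal membrane proteins served for comparison, and whether each protein is found mainly in that membrane was not checked. Of this list of 64, the table holds 63, of which 5 are listed at 0, and 10 had a peak, 1 each. The highest base means were 10398 for Tmem106b, 6322 for Cd81, 5933 for Cd164, 5787 for Mfsd1 and 5338 for Abca2, all below those of Gpnmb, Lamp1, Cd63 and Laptm4a. The paralogues of the channel, Mcoln2 and Mcoln3, are among the genes listed at 0, as is Laptm5. Lamp3 had a base mean of 11.3.

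The centred m6A changes of these 10 peaks went both ways, with a median of 0.03, against 0.75 for the 5 member peaks. The latter median is the value of the Scarb2 peak, with 8 MA input reads and an interval of -0.56 to 2.06. Both Mcoln1 peaks, which are not independent, are counted among the 5. Past 1.5-fold higher were 4 peaks, those of Slc36a4 with 1.18 (0.55 to 1.82), Clcn3 with 1.14 (0.30 to 1.98), Slc38a7 with 0.69 (-0.76 to 2.13) and Slc11a2 with 0.61 on the log2 scale, its interval starting at 0.01. Slc36a4 and Slc38a7 are amino acid transporters, Clcn3 a chloride and proton exchanger and Slc11a2 an iron transporter. Past 1.5-fold lower were 3, those of the cation channel Tpcn1 with -1.24 (-1.79 to -0.69), of Tmem106b with -1.53 (-2.89 to -0.16) and of the nucleoside transporter Slc29a3 with -0.64 (-1.75 to 0.47). Intervals lay above 0 for Slc36a4, Clcn3 and Slc11a2, as for Mcoln1 and Npc1 among the members, and below 0 for Tpcn1 and Tmem106b. The difference between the lists was not tested.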

How the data were processed

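Read trimming by the authors used fastp, alignment HISAT2 on mm10, transcript quantification StringTie, and group comparison DESeq2. Peaks were called and compared by the authors with exomePeak2. Tool versions are not given in the sources used here. The authors deposited 1 base mean a gene, a signal that averages size-factor-normalized counts over libraries, and which libraries it covers is not given in the sources used here. The read counts per peak deposited by the authors are raw and pooled over the 3 replicates of each group. The remaining columns of both tables hold the authors' fold changes, standard errors, test statistics and p-values, and their log2 enrichments. None of these was used. The number of columns of single libraries left out is 0.

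With scipy 1.17.1, numpy 2.4.6 and pandas 2.3.3 under Python 3.11.15, with pyfaidx 0.9.0.4 for sequence and matplotlib 3.10.9 for figures, the values computed were log2 ratios of reads plus 0.5, their normal 95% counting intervals, and exact intervals of shares. Changes were centred on the median of all peaks. Library totals are not given in the sources used here, so totals over peaks are no measure of depth. A fold of 1.5 was used for counts of peaks. Peaks and transcript lengths were placed on GENCODE M21 for GRCm38, and 15739 of 16178 genes had a length. Text names all members, the list genes past the fold and the 5 highest of that list. Members and lists were chosen with earlier results of these data known. The promoter motifs, sequence cores, read depth against level and the share of genes with a peak near a member's level were looked at after the values were seen.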

Additional observations from a re-analysis of the deposited data

How the results depend on the processing

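No alternative turned the direction of any member's value. The median centred m6A change of the 5 member peaks, 0.75 on the log2 scale, was 1.65 with no scaling, which leaves in the shift common to all peaks. Of the 5 peaks past 1.5-fold higher, 0 were past a fold threshold of 2, and 3 of the 3 that had at least 20 reads in each group were past 1.5-fold. The other 11 settings of summary values stayed within counting error or within 1.5 times. For single peaks and genes the bounds were the counting interval, 1.5 times for a level and 5 points for a percentile. Within them stayed 41 settings, and 12 did not, the latter being no scaling for Npc1 and Mcoln1, lengths for 5 genes and percentiles over genes with a base mean of at least 10 for 4 genes. No paired analysis was possible because each group's replicates are pooled in 1 column, and for the same reason no replicate could be left out. Depth limits the Scarb2 and Cd68 peaks, whose intervals span more than 2 log2 units.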
